A study of Mus musculus with 10 samples.

Results

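The mitosis genes are a list of 37 genes of the mitotic cell cycle machinery, from the cyclins that start mitosis to the proteins that split the cell at its end. The members were chosen by gene symbol. Each gene was read from a probe set annotated to that symbol alone, and from the brightest on average over the 10 arrays where there were several. By this rule 36 of the 37 were measured, out of 18193 genes on the array. Ccnb1, the gene of cyclin B1, had no probe set annotated to it alone and was not analysed here.

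The samples were mouse embryonic stem (ES) cells of the line CGR8, strain SV129, studied with and without EBIO, an opener of small- and intermediate-conductance calcium-activated potassium channels. Undifferentiated cells were either left untreated (3 arrays, from cells at passages 25, 26 and 27) or given 1 mM EBIO for 3 days (3 arrays, the same passages). Differentiated cells spent 5 days as embryoid bodies, aggregates in which ES cells form several lineages, followed by 10 days of culture without EBIO (2 arrays) or with it (2 arrays). The labels give no EBIO concentration for the differentiated cells. All 4 groups came from this one cell line, and the arrays of a group are described as independent experiments.

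Values are log2 expression values of Affymetrix arrays, so a difference of 1 is a doubling or a halving. The 6 ES arrays and the 4 differentiated arrays had near-identical distributions within each set but not between the sets. They were taken as normalized separately, so EBIO was compared with its control within each stage and no level was compared between stages. A gene was called lower or higher where limma's moderated test, adjusted by Benjamini-Hochberg over all genes tested, gave an adjusted p under 0.05. Each measured member was above the array median on all 10 arrays, so none was lost to the filter on dim genes. Markers of cell types were read at both stages. The 10 pluripotency markers were all above the array median in untreated ES cells, and the 13 cardiomyocyte markers were all above it in both differentiated groups. In the differentiated controls 9 of 10 fibroblast, 10 of 11 macrophage, all 8 epithelial and all 8 hepatic markers were above it too. With EBIO these counts were 7, 0, 6 and 2. The number of arrays limits the precision at both stages.

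A dividing cell enters mitosis when Cdk1, bound to cyclins A and B, becomes active. Aurora and Polo-like kinases then help to build the spindle, kinetochores tie the chromosomes to it, and the spindle checkpoint holds back the anaphase-promoting complex (APC/C) until each chromosome is attached. The transcripts of these proteins build up in G2 and M phase and are low in cells that have left the cycle, so in tissue their level is widely used as a readout of proliferation. Untreated ES cells divide fast and have a short G1 phase, while heart muscle cells divide less and less as they mature.

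In ES cells treated for 3 days, 12 of the 36 genes were lower and 0 were higher in the fit without the passages. The other 24 were not called. With the passages as a block in the fit, 15 were lower and 5 higher (Mki67, Cenpf, Anln, Nuf2 and Cdk1). Over all 12096 genes tested, that fit called 3141 lower and 3333 higher. The 12 were Ccnb2, Aurka, Ttk, Bub1b, Cdc20, Ube2c, Cenpa, Kif11, Kif2c, Nusap1, Ect2 and Racgap1, with falls of 1.3-fold to 2.12-fold. In differentiated cells treated for 10 days, 35 of the 36 were lower, by 1.36-fold to 2.63-fold. Cenpf was the exception, with a difference of -0.18 (adjusted p = 0.082). The 12 genes lower in ES cells were all among the 35.

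These counts stand against a broad response of the arrays. Of the 12096 genes tested in ES cells, 21.2% were called lower and 23.5% higher. Of the 12338 tested in differentiated cells, 32.6% were lower and 33.3% higher. The median difference of the members was -0.21 in ES cells (-0.04 over all genes) and -0.75 in differentiated cells (0.02 over all genes). The members' differences ran from -1.09 to 0.64 in ES cells and from -1.40 to -0.18 in differentiated cells, so they were spread to both sides of 0 at the first stage and all on one side at the second. At an unadjusted p under 0.05, 15 members were lower and 4 higher in ES cells. The share over all genes was not counted at that threshold. In bulk samples such as these, fewer dividing cells and less RNA per cell cannot be told apart.

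**Figure D1:**
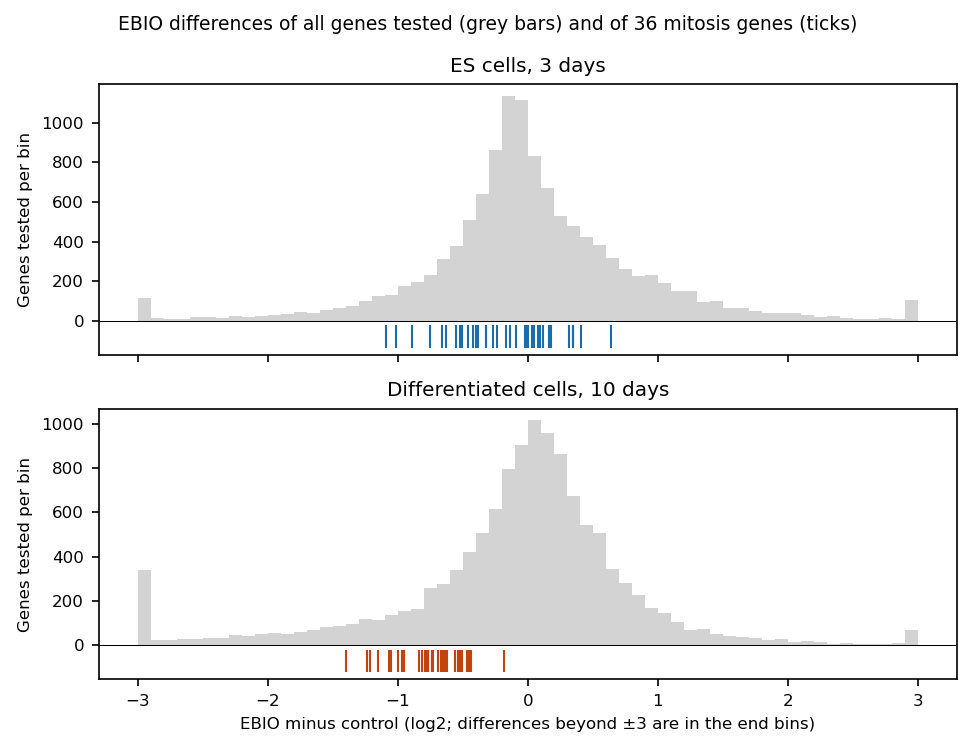
Differences between EBIO and control on the log2 scale (horizontal axis) for all genes tested (grey bars, genes per bin of width 0.1) and for the 36 mitosis genes (coloured ticks), in ES cells above and differentiated cells below. The ticks straddle 0 in ES cells, from -1.09 to 0.64, and all lie below 0 in differentiated cells, from -1.40 to -0.18.

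Without any test, the groups can be compared by whether their arrays overlap. In differentiated cells both EBIO arrays lay below both control arrays for all 36 members, an arrangement seen for 41.0% of all genes tested. In ES cells the 3 EBIO arrays lay below the 3 control arrays for 15 members (26.8% of all genes) and above them for 2, Cdk1 and Anln (27.9% of all genes). The other 19 members overlapped. Within an array, a measured member stood at a median percentile of 94.4 in control and 92.7 in EBIO-treated ES cells, and of 87.5 in control and 80.5 in EBIO-treated differentiated cells.

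Many of these genes are known targets of the DREAM and MuvB-FOXM1 complexes, which bind a promoter element, the CHR (cell cycle genes homology region). The CCAAT box is bound by another factor, NF-Y. The windows searched here were RefSeq's, on the mouse build GRCm38.p6, from 250 bases before to 50 bases after the annotated start. They were found for 32 of the 37 members, 1 window a gene, Ccnb1 included. There was none for Ccna2, Aurkb, Pbk, Tpx2 and Kif20a. The CHR was searched as TTTGAA or TTCGAA and the CCAAT box as CCAAT, both on either strand. In the window of Cdca8 a CHR match and a CCAAT match share 1 base, and both were counted. CHR letters stood in 24 of the 32 windows, against 19.4% of the windows of 27025 genes. CCAAT letters stood in 24 windows as well (against 37.9%), and both in 21 (65.6%, against 7.7%). The TATA box (TATAAA) was in 1 window (3.12%, against 14.2%). An E2F-type site (TTTCCCGC, TTTGGCGC, TTTCGCGC or TTTGCCGC, on either strand) was in 1 window as well (3.12%, against 2.32%). These are descriptions of letters, with no test, and a match is not shown to be a working site.

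The promoters of 6 members are shown because they span the responses described below, each from 100 bases before to 29 bases after the start base, 5′ to 3′ on the gene's strand. Capitals mark CHR letters (TTTGAA or TTCGAA, or their reverse) and CCAAT letters (CCAAT or ATTGG). In the fit without the block, Ccnb2, Cdc20, Ect2 and Nusap1 were lower with EBIO at both stages. Cdk1 was called only in differentiated cells in that fit, and Cenpf at neither stage. With the passages as a block, Cdk1 and Cenpf were called higher in ES cells.
Ccnb2: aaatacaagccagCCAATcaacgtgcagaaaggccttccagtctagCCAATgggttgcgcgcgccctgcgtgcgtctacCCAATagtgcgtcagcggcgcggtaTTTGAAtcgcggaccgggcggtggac
Cdc20: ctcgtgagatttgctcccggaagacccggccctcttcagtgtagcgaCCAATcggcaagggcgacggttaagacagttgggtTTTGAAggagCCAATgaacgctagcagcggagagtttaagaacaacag
Ect2: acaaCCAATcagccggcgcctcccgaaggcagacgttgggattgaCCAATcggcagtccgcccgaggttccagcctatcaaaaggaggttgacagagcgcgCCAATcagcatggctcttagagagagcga
Cdk1: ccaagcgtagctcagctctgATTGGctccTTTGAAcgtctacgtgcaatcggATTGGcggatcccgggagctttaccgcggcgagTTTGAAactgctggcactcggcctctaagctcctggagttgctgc
Cenpf: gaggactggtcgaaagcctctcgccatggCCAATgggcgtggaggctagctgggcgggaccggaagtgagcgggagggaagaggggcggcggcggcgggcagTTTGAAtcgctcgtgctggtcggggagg
Nusap1: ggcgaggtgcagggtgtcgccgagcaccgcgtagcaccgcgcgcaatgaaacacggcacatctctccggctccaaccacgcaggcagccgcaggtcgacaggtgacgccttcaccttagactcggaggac
Ccnb2 and Cdc20 carry CHR and CCAAT letters together near the start. Cdk1 carries 2 of each in the printed stretch. Cenpf has them too, although it was called at neither stage in the fit without the block. The window of Nusap1, with the largest fall in ES cells, has none of either. The printed stretch of Ect2 shows CCAAT letters only, and its CHR letters lie outside it, in the rest of the window.

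On GRCm38.p6 the printed stretches are chr9:70421525-70421654 (Ccnb2, minus strand), chr4:118437314-118437443 (Cdc20, minus strand), chr3:27153849-27153978 (Ect2, minus strand), chr10:69352883-69353012 (Cdk1, minus strand), chr1:189688057-189688186 (Cenpf, minus strand) and chr2:119618198-119618327 (Nusap1, plus strand).

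**Figure D2:**
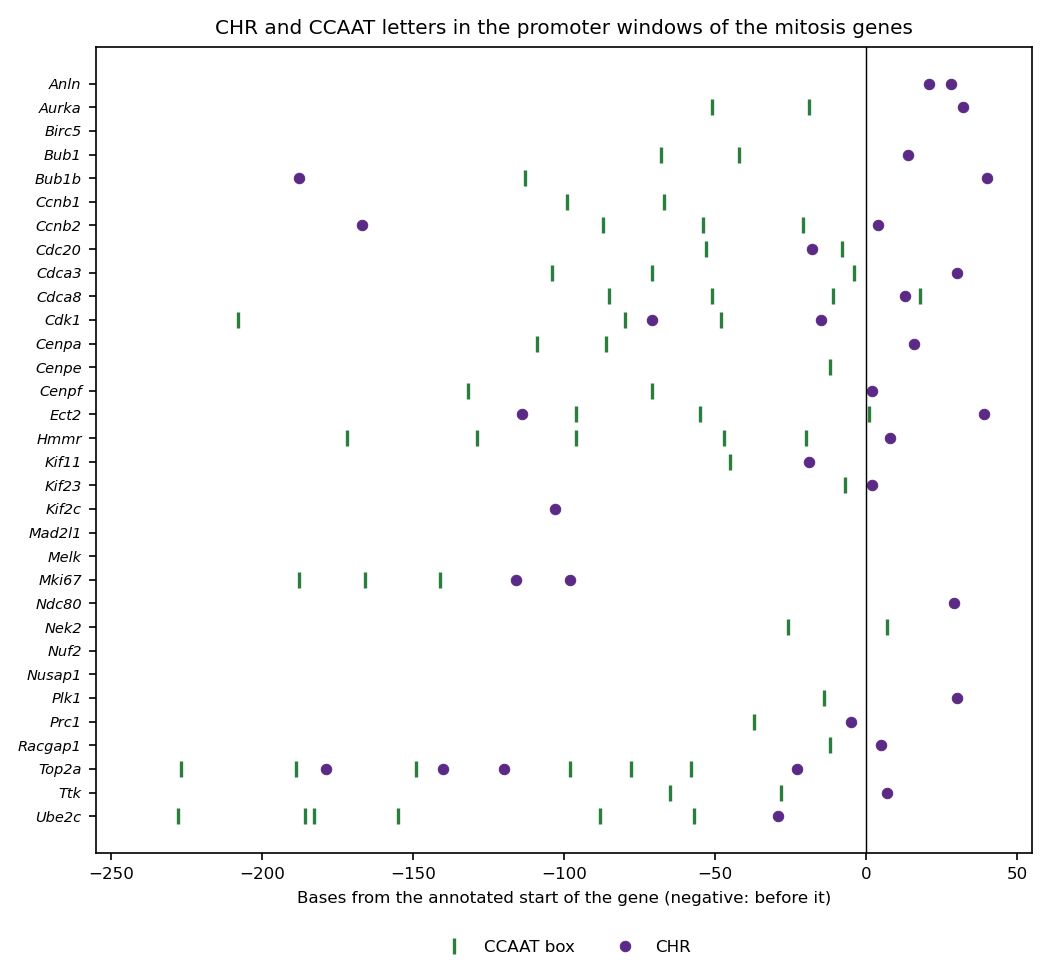
Positions of CHR letters (purple points) and CCAAT letters (green bars) in the promoter windows of 32 mitosis genes, in bases from the annotated start. Of 33 CHR matches, 23 lie between 30 bases before and 49 bases after the start, and 43 of 59 CCAAT matches lie in the 130 bases before it.

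Both responses in ES cells were found among genes with these letters. Of the 12 members lower in ES cells, all with a window, 11 had CHR and 10 had CCAAT letters. Of the 19 measured members with a window that were not called in ES cells, 13 had CHR and 13 had CCAAT letters. The 5 members with neither were Birc5, Mad2l1, Melk, Nuf2 and Nusap1. Of these, Nusap1 was lower in ES cells and all 5 were lower in differentiated cells.

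The cyclins and their kinase come first in the order of mitosis. Ccnb2 encodes cyclin B2, a partner of Cdk1. In ES cells it measured 10.18, 10.37 and 10.08 in the controls and 9.56, 9.86 and 9.54 with EBIO. After differentiation it measured 10.05 and 10.14 in the controls and 9.06 and 8.99 with EBIO. All EBIO arrays of Ccnb2 lay below all control arrays of the same stage. The fall was 1.47-fold in ES cells (-0.55 ± 0.14 SE, adjusted p = 0.012) and 2.09-fold in differentiated cells (-1.07 ± 0.08, adjusted p = 9.5e-05).

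Cdk1, the kinase that drives entry into mitosis, went the other way in ES cells. Its 3 control arrays measured 10.55, 10.57 and 10.40 and its 3 EBIO arrays 10.83, 11.03 and 10.62. In differentiated cells the controls measured 10.45 and 10.51 and the EBIO arrays 9.70 and 9.72. The ES groups did not overlap, with EBIO above. The difference of 0.32 ± 0.14 was not called without the block (adjusted p = 0.096) and was called with it (0.041). The 1.71-fold fall in differentiated cells was called (-0.77 ± 0.07, adjusted p = 0.00023). Ccna2, the gene of cyclin A2, overlapped between the ES groups (0.09, adjusted p = 0.59) and fell 1.58-fold in differentiated cells.

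Of the 8 mitotic kinases, 2 were lower in ES cells (25%, against 21.2% of all genes) and all 8 in differentiated cells (against 32.6%). Aurka, the spindle pole kinase, measured 9.67, 9.85 and 9.66 in control and 9.04, 9.09 and 9.16 in EBIO-treated ES cells. At the differentiated stage it measured 9.12 and 9.10 against 8.40 and 8.26. The groups were apart at both stages, with falls of 1.55-fold (-0.63 ± 0.12, adjusted p = 0.0025) and 1.71-fold (-0.78 ± 0.08, adjusted p = 0.00038). The other kinase lower in ES cells was Ttk, the spindle checkpoint kinase also known as Mps1, at 1.3-fold (adjusted p = 0.036).

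Aurkb, the kinase of the chromosomal passenger complex, overlapped between the ES groups. It measured 8.32, 8.62 and 8.71 in the controls and 8.21, 8.14 and 8.35 with EBIO, a difference of -0.32 ± 0.14 (adjusted p = 0.10). In differentiated cells it measured 8.75 and 8.61 in the controls and 7.99 and 7.83 with EBIO, a 1.70-fold fall (adjusted p = 8e-04). One ES control array, at 8.32, lay within the range of the EBIO arrays.

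Plk1, the Polo-like kinase of centrosomes, kinetochores and the cleavage site, was nearly level in ES cells. It measured 9.58, 9.53 and 9.53 in the controls and 9.38, 9.58 and 9.41 with EBIO (-0.09 ± 0.12, adjusted p = 0.57). In differentiated cells the controls measured 9.22 and 9.13 and the EBIO arrays 8.37 and 8.36, a 1.75-fold fall (adjusted p = 0.00023). Pbk, a kinase active in mitosis, had the largest fall of the group. Its ES arrays overlapped, with 8.73, 8.94 and 8.59 in the controls and 8.47, 8.68 and 8.59 with EBIO. After differentiation it measured 10.34 and 10.26 against 9.21 and 8.98, a 2.31-fold fall (-1.21 ± 0.10, adjusted p = 0.00017). The remaining kinases in differentiated cells were Melk (-0.77), Bub1 (-0.51), a checkpoint kinase, Nek2 (-0.45), a kinase of centrosome separation, and Ttk (-0.44).

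Of the 5 genes grouped under the spindle checkpoint and the APC/C, 3 were lower in ES cells and 5 in differentiated cells. Over all genes tested, 21.2% and 32.6% were lower at these stages. The checkpoint kinases Bub1 and Ttk were counted with the kinases, with differences of -0.51 and -0.44 in differentiated cells. Bub1b encodes BubR1, a checkpoint protein that inhibits the APC/C. It measured 9.70, 9.73 and 9.61 in control and 8.58, 8.97 and 8.82 in EBIO-treated ES cells. At the differentiated stage it measured 9.30 and 8.96 in the controls and 7.80 and 7.66 with EBIO. The groups were well apart at both stages, with a 1.85-fold fall in ES cells (-0.89 ± 0.14, adjusted p = 0.00082). The 2.63-fold fall in differentiated cells (-1.40 ± 0.13, adjusted p = 0.00025) was the largest of any member there.

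Cdc20, the activator of the APC/C at the start of anaphase, measured 11.50, 11.32 and 11.58 in control and 10.79, 10.75 and 10.89 in EBIO-treated ES cells. In differentiated cells it measured 11.55 and 11.28 against 10.46 and 10.26. The lowest control lay above the highest EBIO array at each stage, with falls of 1.57-fold (-0.66 ± 0.12, adjusted p = 0.0026) and 2.07-fold (-1.05 ± 0.12, adjusted p = 6e-04). Ube2c, the ubiquitin-conjugating enzyme that works with the APC/C, fell by nearly the same amount at both stages, 1.43-fold and 1.45-fold. Mad2l1, the checkpoint protein Mad2, differed by 0.08 in ES cells (adjusted p = 0.63) and fell 1.57-fold in differentiated cells. Cdca3, a protein that marks others for ubiquitination at entry into mitosis, differed by -0.01 in ES cells (adjusted p = 0.98) and fell 1.73-fold in differentiated cells.

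At the centromere and kinetochore, 1 of 7 genes was lower in ES cells and 6 of 7 in differentiated cells. The ES share of 14.3% was below the 21.2% of all genes, and the differentiated share of 85.7% above the 32.6%. Cenpa, the histone H3 variant that marks centromeres, measured 9.74, 9.88 and 9.75 in control and 9.07, 9.18 and 8.87 in EBIO-treated ES cells. After differentiation it measured 10.31 and 10.33 in the controls and 9.16 and 8.99 with EBIO. It was the member of this group that fell at both stages, by 1.69-fold (-0.75 ± 0.13, adjusted p = 0.0015) and 2.37-fold (-1.24 ± 0.08, adjusted p = 7.5e-05).

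Nuf2, a subunit of the NDC80 complex that holds microtubules, measured 6.64, 6.80 and 7.09 in control and 7.06, 7.22 and 7.31 in EBIO-treated ES cells. At the differentiated stage it measured 8.10 and 7.75 against 7.19 and 7.18. The ES groups overlapped by 1 control array, with a difference of 0.35 ± 0.15 (adjusted p = 0.089 without the block and 0.028 with it). The differentiated groups were apart, with a 1.67-fold fall (adjusted p = 0.0031). Its partner Ndc80 differed by 0.00 in ES cells (adjusted p = 0.99) and by -0.56 in differentiated cells. Birc5, or survivin, a subunit of the chromosomal passenger complex, differed by 0.12 and -0.52. Cdca8, or borealin, of the same complex, differed by -0.51 in ES cells (adjusted p = 0.07) and fell 1.78-fold in differentiated cells. The large coiled-coil proteins Cenpe, a kinetochore motor, and Cenpf differed by 0.18 and 0.41 in ES cells. Neither was called there without the block, and with it Cenpf was called (adjusted p = 0.016). In differentiated cells Cenpe fell by 0.47, and Cenpf measured 8.68 and 8.54 in the controls and 8.43 and 8.42 with EBIO, apart but not called.

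Among the 8 spindle motors and microtubule proteins, 3 were lower in ES cells and all 8 in differentiated cells. Over all genes tested, 21.2% and 32.6% were lower at these stages. Nusap1, which bundles spindle microtubules, measured 9.54, 9.54 and 9.47 in control and 8.30, 8.43 and 8.56 in EBIO-treated ES cells. In differentiated cells it measured 10.09 and 9.99 in the controls and 8.98 and 8.80 with EBIO. Its fall in ES cells was the largest of any member, at 2.12-fold (-1.09 ± 0.12, adjusted p = 0.00016), and the fall in differentiated cells was of similar size, at 2.22-fold (-1.15 ± 0.09, adjusted p = 0.00015). Kif11, the motor that pushes the spindle poles apart, fell 1.34-fold and 1.54-fold. Kif2c, a kinesin that removes tubulin from microtubule ends, fell 1.37-fold and 1.62-fold.

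The other 5 were not called in ES cells, with differences from -0.24 ± 0.15 (Kif20a) to 0.16 ± 0.13 (Kif23). Tpx2, which nucleates spindle microtubules and activates Aurora A, measured 9.30, 9.42 and 9.24 in control and 9.39, 9.36 and 9.30 in EBIO-treated ES cells. After differentiation it measured 9.48 and 9.35 against 8.44 and 8.39, a 2.01-fold fall (adjusted p = 0.00014). Its ES groups overlapped and its differentiated groups were a full log2 unit apart. The kinesins of the central spindle, Kif20a and Kif23, fell 1.96-fold and 1.56-fold in differentiated cells. Hmmr, a spindle assembly protein, fell 1.71-fold and Prc1, which crosslinks the midzone microtubules, 1.65-fold.

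The 3 cytokinesis genes split in ES cells. Ect2, the exchange factor that switches on RhoA at the cleavage furrow, measured 9.70, 9.64 and 10.24 in control and 8.87, 8.73 and 8.95 in EBIO-treated ES cells. At the differentiated stage it measured 9.38 and 9.19 in the controls and 8.40 and 8.27 with EBIO. The falls were 2.01-fold (-1.01 ± 0.17, adjusted p = 0.0016) and 1.94-fold (-0.95 ± 0.10, adjusted p = 0.00037). Racgap1, the centralspindlin subunit that recruits Ect2, measured 8.96, 9.10 and 8.97 against 8.42, 8.60 and 8.48 in ES cells. In differentiated cells it measured 8.98 and 8.79 against 7.96 and 7.92, and it fell at both stages, by 1.42-fold and 1.93-fold.

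Anln encodes anillin, a scaffold of the contractile ring. It measured 10.21, 10.15 and 10.50 in control and 10.60, 10.53 and 10.77 in EBIO-treated ES cells. After differentiation it measured 10.05 and 9.98 in the controls and 9.33 and 9.23 with EBIO. The ES groups were apart with EBIO above. The difference of 0.35 ± 0.14 was not called without the block (adjusted p = 0.074) and was called with it (0.025). In differentiated cells it fell 1.67-fold (adjusted p = 4e-04).

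The 2 chromosome proteins were not called in ES cells in the fit without the block and were lower in differentiated cells. Top2a, the topoisomerase that untangles sister chromatids, measured 11.16, 10.97 and 10.86 in control and 10.72, 10.61 and 10.85 in EBIO-treated ES cells (-0.27 ± 0.13, adjusted p = 0.13). At the differentiated stage it measured 11.61 and 11.36 against 10.85 and 10.79, a 1.59-fold fall (adjusted p = 0.0021). Mki67, the gene of the proliferation marker Ki-67, measured 9.26, 9.08 and 9.77 in control and 9.89, 9.72 and 10.44 in EBIO-treated ES cells. In differentiated cells it measured 10.58 and 10.27 in the controls and 9.89 and 9.88 with EBIO. Its ES groups overlapped because the passage-27 control was high, and the difference of 0.64 ± 0.23 was the most positive of the members (adjusted p = 0.051). The 1.45-fold fall in differentiated cells was called (adjusted p = 0.0079).

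**Figure D3:**
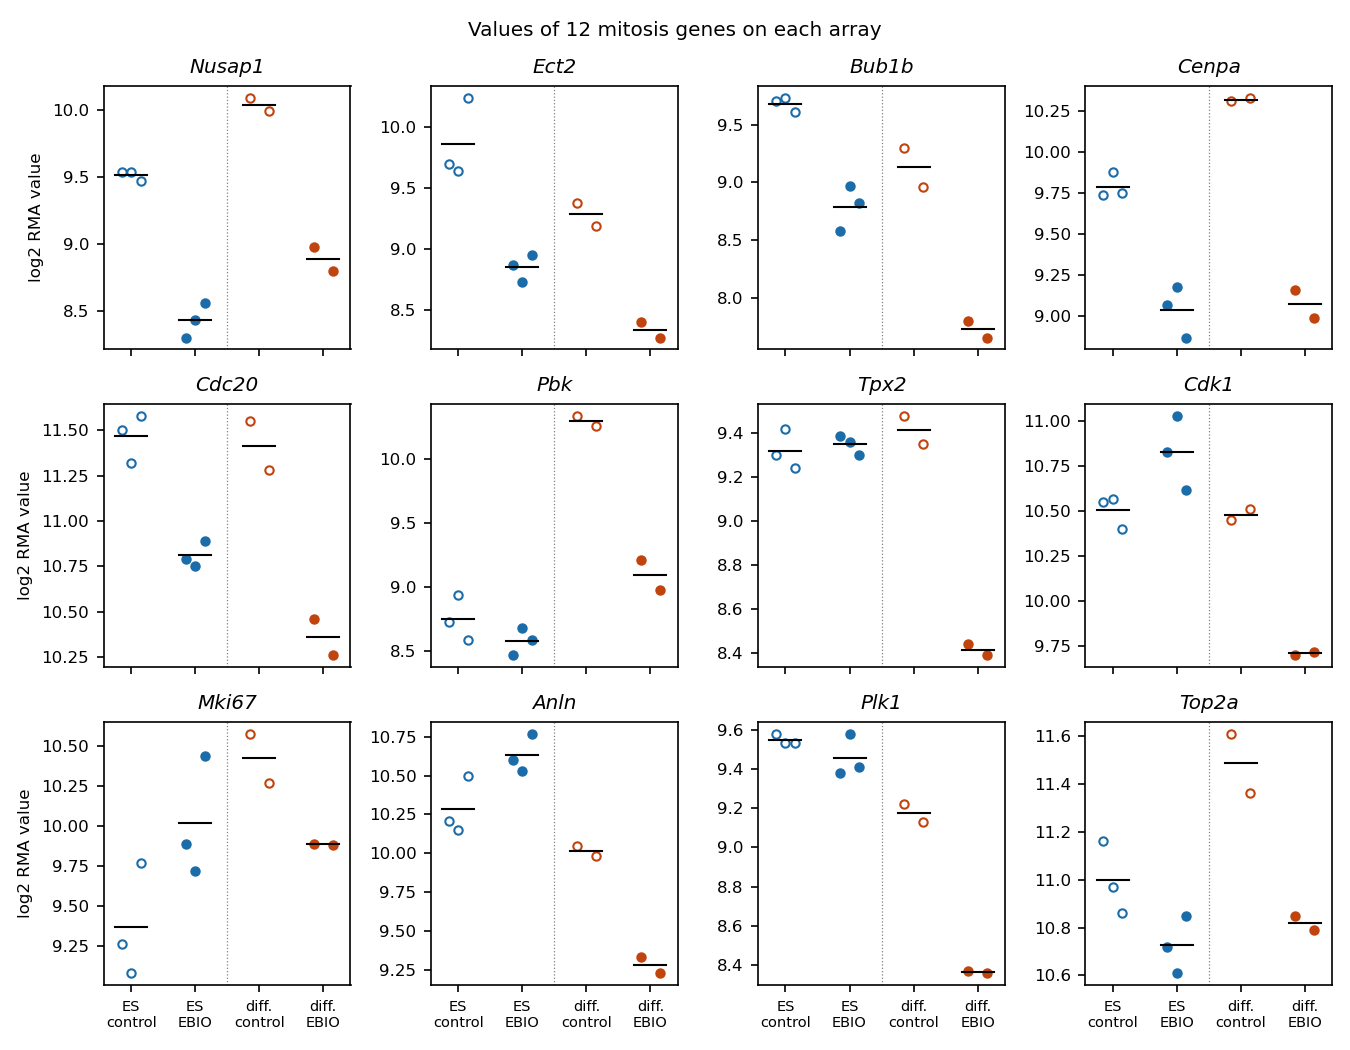
Log2 values of 12 mitosis genes on each of the 10 arrays (points), with the group mean (bar), for control and EBIO-treated ES cells and differentiated cells. Each panel has its own vertical range, and the stages on either side of the dotted line were taken as normalized separately. The EBIO points of Nusap1, Ect2, Bub1b, Cenpa and Cdc20 lie below the controls at both stages, and those of Cdk1 and Anln lie above them in ES cells and below them in differentiated cells.

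**Figure D4:**
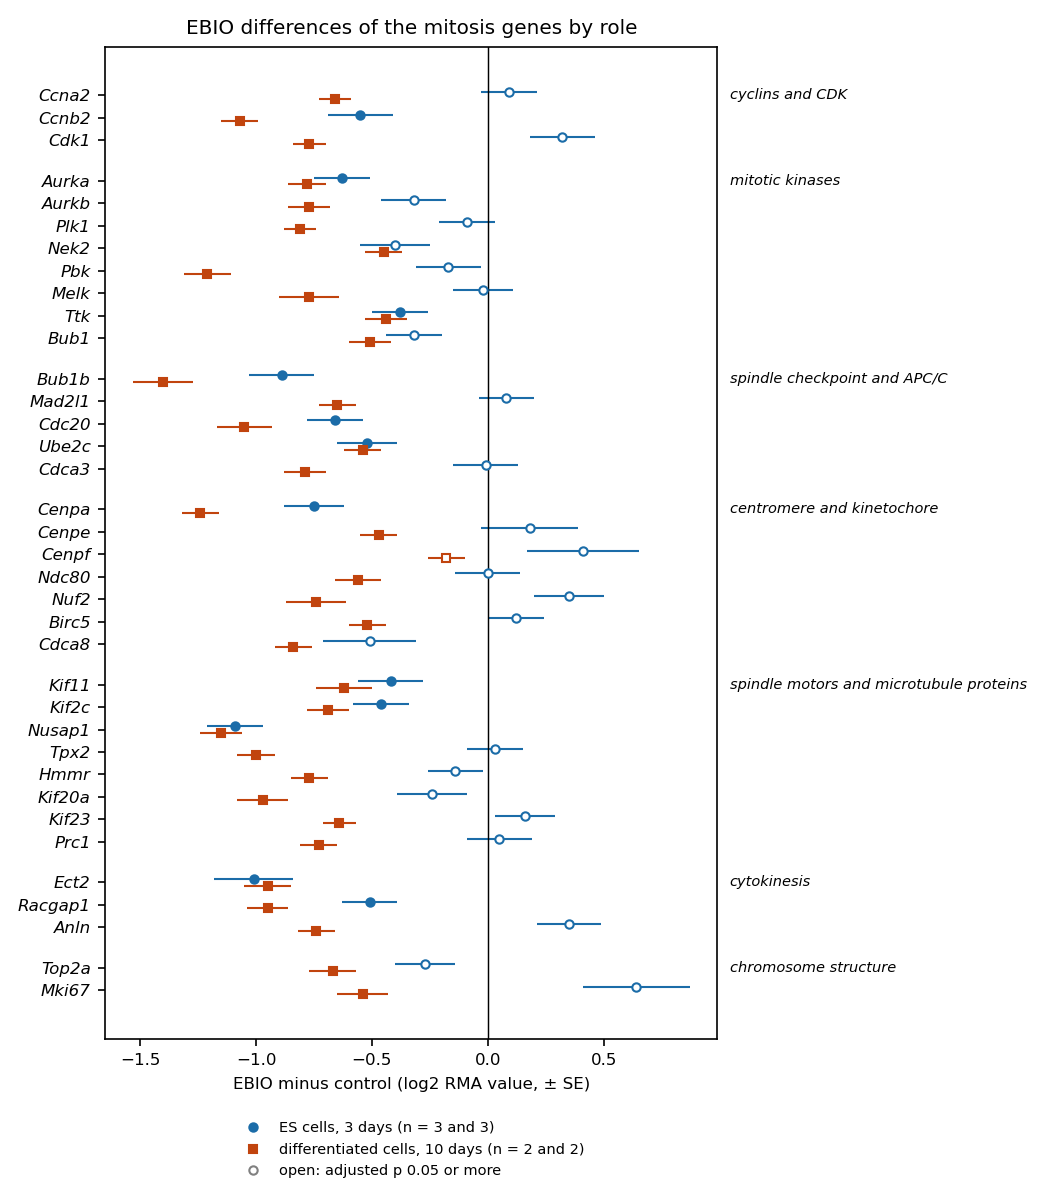
Difference between EBIO and control on the log2 scale, with its standard error, for the 36 mitosis genes by role, in ES cells (circles) and differentiated cells (squares). Filled symbols passed an adjusted p of 0.05 in the fit without the replicate block: 12 circles and 35 squares, all on the negative side.

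Passage numbers link the ES arrays. Deviations from the group means correlated between arrays of the same passage (r of 0.33, 0.23 and 0.62 across all genes tested). Between the first control and the second EBIO array r was 0.24, and between the second control and the first EBIO array 0.08. The third array of either group gave -0.51 to -0.29 with the first and second of the other. Deviations in a group of 3 sum to 0, so part of these negative values is forced. The labels pair the arrays by passage. In the correlations only the passage-27 pair stood apart, and on their own they do not separate the first and second pairs. On the passage-27 array 11 members were highest in both ES groups, Mki67 and Cenpf among them. With the replicate number as a block, the 12 members lower in ES cells kept their call and Nek2 (adjusted p = 0.019), Bub1 (0.043) and Cdca8 (0.0063) joined them. The block also called 5 members higher in ES cells: Mki67 (0.64, adjusted p = 0.0012), Cenpf (0.41, 0.016), Anln (0.35, 0.025), Nuf2 (0.35, 0.028) and Cdk1 (0.32, 0.041). The count of members higher in ES cells was also 1 to 3 under some other settings, with all arrays kept. With arrays left out it was 1, Mki67, without both passage-27 arrays, 4 without the third ES control array and 1 without the second ES EBIO array, while 13, 13 and 10 members were then lower.

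Whether EBIO acted differently at the stages was tested as the difference between the within-stage differences, in one fit of all 4 groups. The EBIO difference was more negative in differentiated than in ES cells for 35 of the 36 members, all but Ect2 (0.06 ± 0.24). Over all genes it was so for 6497 of 13712. Some of the 35 were within their SE, such as Ube2c (-0.02 ± 0.18) and Nusap1 (-0.07 ± 0.17). The difference between stages was called for 20 members and 0 in the other direction, against 25.0% of 13712 genes called in the same direction. The median over the members was -0.57, and 0.04 over all genes. Stage here goes with length of treatment, culture and apparent normalization set, which cannot be told apart.

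The 4 members with the largest difference between stages were Mki67 (-1.18 ± 0.33, adjusted p = 0.013), Nuf2 (-1.10 ± 0.22, adjusted p = 0.002), Cdk1 (-1.09 ± 0.18, adjusted p = 0.00058) and Anln (-1.09 ± 0.19, adjusted p = 0.00068). Each of the 4 had a positive difference in ES cells, not called there in the fit without the block, and a called fall in differentiated cells. Nuf2 and Cdk1 kept the call for the difference under every alternative, and Mki67 and Anln did not. In all, 12 members had a positive difference in ES cells, and each of them had a negative one in differentiated cells. Of the 12 members lower in ES cells, 3 were called for the difference, Ccnb2 (adjusted p = 0.047), Cenpa (0.037) and Racgap1 (0.044), and all 3 lost the call with arrays centred on their medians. Of the 24 others, 17 were. The 12 had a median of -0.59 in ES cells and -0.95 in differentiated cells, and the 24 a median of 0.02 and -0.74. The split was made by the ES call, and the difference between stages contains the ES difference. These counts and the ES medians thus follow in part from the split and are no separate support. Leaving out the first differentiated control array reduced the 20 calls to 13.

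**Figure D5:**
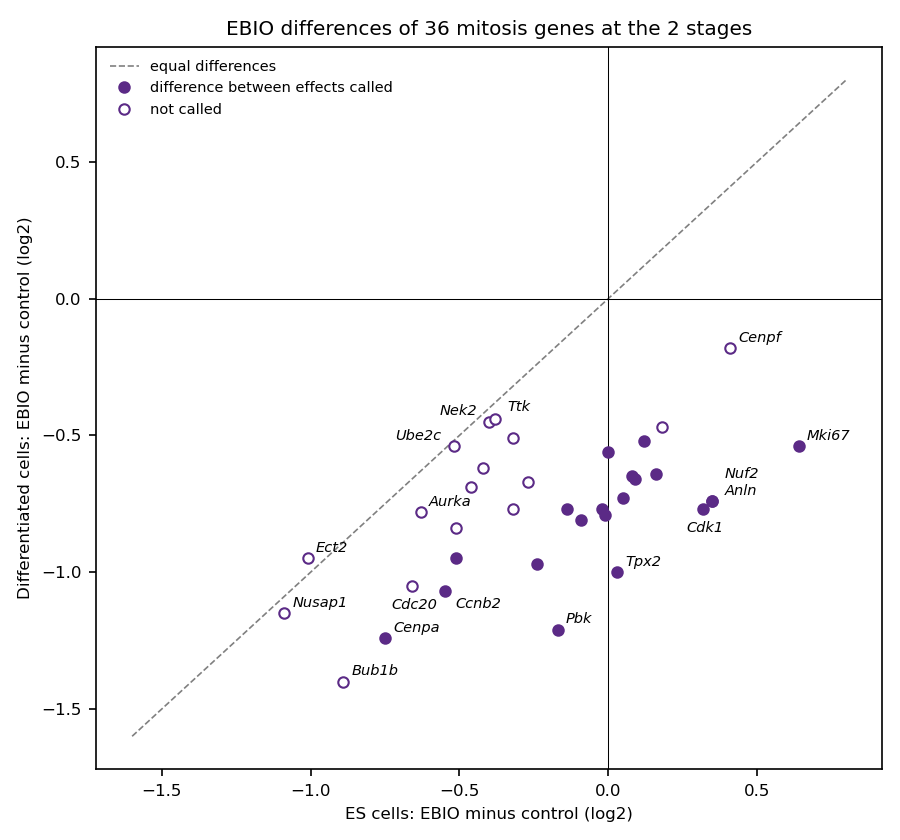
EBIO difference in differentiated cells (vertical axis, log2) against that in ES cells (horizontal axis, log2) for 36 mitosis genes. Points below the dashed line fell more, or rose less, in differentiated cells, and Ect2 alone lies above it. Filled points are the 20 members called for the difference between stages.

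Several members have more than one probe set. Fitted each on its own, 26 further probe sets were tested in ES cells, of which 6 were lower and 0 higher. In differentiated cells 23 were tested, of which 17 were lower and 0 higher. The share over all probe sets was not counted. All 3 probe sets of Cdc20 were lower at both stages, with ES differences of -0.66, -0.75 and -0.75. The probe set that stands for the gene carries Affymetrix's mark for probes that may also bind other transcripts, while one of the others does not carry it. For Cdca8 the other 2 probe sets were lower in ES cells (-0.45, adjusted p = 0.015, and -0.55, adjusted p = 0.0067), although the brightest was not called. Nek2 and Anln had probe sets that disagreed in differentiated cells, where the second set gave 0.03 (adjusted p = 0.82) and 0.24 (adjusted p = 0.09). Further sets of Kif2c (-0.11), Tpx2 (-0.05), Cenpe (-0.56) and Top2a (-0.28) were not called there either. Among genes called lower in ES cells, further sets of Ttk (-0.06), Racgap1 (-0.34), Kif11 (-0.37 and -0.42) and Kif2c (-0.53) were not called. Another set of Kif2c (-0.55) and a further set of Bub1b (-1.02) were called lower in ES cells.

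The wider mitotic machinery was read from 102 further genes, listed by function, among them regulators of Cdk1, the APC/C, condensin, cohesin and the rest of the kinetochore. In ES cells 30 of 101 tested were lower and 13 higher (median -0.16). In differentiated cells 57 of 100 were lower and 11 higher (median -0.28). Over all genes tested, 21.2% were lower and 23.5% higher in ES cells, and 32.6% and 33.3% in differentiated cells. The largest falls in ES cells were those of Mybl2 (-2.03), the B-Myb subunit that joins MuvB, Cenpm (-1.55), a centromere protein, and Cep55 (-1.23), which acts in the last cut between daughter cells. The largest rises were Mis12 (1.10) and Zwint (0.95), both of the kinetochore, and Cdkn3 (0.84), a phosphatase of cyclin-dependent kinases. In differentiated cells the largest falls were Cdc25b (-1.58), a phosphatase that activates Cdk1, Spc24 (-1.28), a partner of Ndc80 and Nuf2, and Depdc1a (-1.17). The rises were Lin54 (0.56), the DNA-binding subunit of MuvB, Zwint (0.53) and Ncapd3 (0.52), a condensin subunit. Zwint was thus higher at both stages.

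The transcription factors of the mitotic programme did not move as one. Foxm1, a forkhead factor that activates G2 and M genes, went from 6.01 ± 0.26 to 6.67 ± 0.13 (SD, n = 3 each) in ES cells and was called higher (0.66, adjusted p = 0.0089). It was not called in differentiated cells (0.14, adjusted p = 0.21). Mybl2 fell from 10.38 ± 0.23 to 8.35 ± 0.09 (n = 3 each) in ES cells (adjusted p = 1.4e-05), and in differentiated cells it measured 5.91 in both groups, near the array medians of 5.59 to 5.68. Lin9, another MuvB subunit, was lower at both stages (-0.97 and -0.71), although its EBIO-treated ES mean of 4.47 lay below the array medians.

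Markers of other cell types moved with the differentiated groups. The 13 cardiomyocyte markers were all higher with EBIO, their mean going from 8.88 to 8.98 on the control arrays to 12.42 to 12.44 on the EBIO arrays. All 9 fibroblast markers tested were lower, the mean over the 10 listed going from 11.25 to 11.26 down to 6.98 to 7.01. All 10 macrophage markers tested were lower, from 10.17 to 10.46 down to 4.27 to 4.35. Of the 11 listed, 10 lay above the array median on both control arrays and 0 on both EBIO arrays. These 10 passed the filter through the control arrays, so their shared direction is no separate support. The endothelial, epithelial and hepatic markers were lower as well, 8 of 8 tested in each list, against 32.6% of all genes tested. In the endothelial and hepatic lists, 8 markers each lay above the median on both control arrays and 2 each on both EBIO arrays. Most of these, too, passed the filter through the controls. Smooth muscle markers were higher for 3 of 5 tested and lower for 2, and neural markers higher for 4 of 6 and lower for 2. In ES cells all 10 pluripotency markers were lower, from 11.21 to 11.42 down to 7.54 to 7.89. Epithelial markers there were higher for 4 of 8 and lower for 3, their mean going from 7.83 to 8.57 up to 9.27 to 9.85, with Krt8 at 4.75. Smooth muscle markers were higher for 3 of 5 tested in ES cells and lower for 1, from 5.68 to 6.21 up to 7.64 to 7.85, with Acta2 at 4.94. Neural markers were higher for 4 of 7 tested and lower for 1. Cardiomyocyte markers in ES cells were higher for 1 of 6 tested and lower for 2, endothelial markers lower for 2 of 7 and macrophage markers lower for 1 of 4. The 1 fibroblast and 7 hepatic markers tested there were not called. The part of these cell type changes in the members' falls was not tested.

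RNA quality and array differences were looked at beside the members. The 3′ over 5′ signal of Actb was 0.33 to 0.50 (log2) in control and 0.08 to 0.20 in EBIO-treated ES cells, and 0.40 to 0.48 over the 4 differentiated arrays. The same measure of Gapdh did not separate the ES groups, at -0.08 to 0.06 in control and 0.01 to 0.04 in EBIO-treated cells. In differentiated cells the first array of each group was the higher one for 31 of 36 members among the controls and for 32 among the EBIO arrays, and the groups did not overlap for any member. The part of the Actb difference in the ES result was not tested.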

How the data were processed

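Total RNA from the 10 samples was labelled with biotin and hybridised to Affymetrix arrays, per the labels' protocols. The authors deposited log2 values, made with RMA in BioConductor, as the submitters' processing notes and the labels say; a version is not given in the sources used here. Their distributions were near-identical within the ES arrays and within the differentiated arrays, but not between these sets. Of 45101 probe sets, 34945 had 1 gene symbol, 932 several and 9160 none, and 64 were controls. Symbols were updated through gene IDs for 34741, giving 18193 genes. A gene was tested if it exceeded the array median on a number of arrays no smaller than the smaller group. Differences were fitted with limma 3.58.1 in R 4.3.3 (lmFit, eBayes), on the arrays of 1 stage, or on all 10 for the difference between stages, with Benjamini-Hochberg adjustment over all genes tested and a threshold of 0.05. The fit was tested on simulated data. Standard errors come from these fits. p-values measure the spread between arrays of one cell line.

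Same-numbered ES arrays share a passage, and the block pairs them by it. Their deviations correlated (0.33, 0.23 and 0.62), but the first control and the second EBIO array reached 0.24. Only the third pair stood apart, so the correlations on their own do not separate the first and second pairs. The labels set the pairing by passage. The fit without the block is the main one reported. The fit with it called 15 members lower and 5 higher in ES cells. Named in full were the 6 members with the largest called fall at each stage, the largest of each role, the 4 with the largest difference between stages, and Cdk1, Aurkb, Plk1, Top2a, Mki67, Nusap1 and Cdc20; Tpx2 and Racgap1 were added after their values were seen. From each other list the 3 largest called falls and rises were named; Foxm1 and Lin9 were chosen for their role in transcription after their values were seen. The members and lists were chosen with earlier results of these data known. Alternatives covered the filter, the probe set, normalization, the variance prior, the replicate block, a joint fit and each array left out.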

Additional observations from a re-analysis of the deposited data

Results flagged for a closer look

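The EBIO difference was larger on the negative side in differentiated than in ES cells, by the test of the difference itself (limma, Benjamini-Hochberg over 13712 genes), for 20 members. In log2 units these were Mki67 (-1.18), Nuf2 (-1.10), Cdk1 (-1.09), Anln (-1.09), Pbk (-1.04), Tpx2 (-1.03), Cdca3 (-0.79), Kif23 (-0.79), Prc1 (-0.77), Ccna2 (-0.75), Melk (-0.75), Mad2l1 (-0.73), Kif20a (-0.73), Plk1 (-0.72), Birc5 (-0.64), Hmmr (-0.64), Ndc80 (-0.55), Ccnb2 (-0.51), Cenpa (-0.49) and Racgap1 (-0.44). Ccnb2, Cenpa and Racgap1 were called lower at both stages, and their stage differences were close to the threshold (adjusted p = 0.047, 0.037 and 0.044). None of these 3 was called under every alternative: with arrays centred on their medians the adjusted p was 0.064, 0.053 and 0.072, and without the second differentiated EBIO array 0.14, 0.15 and 0.13. The other 17 were not called in ES cells in the fit without the block. Of these, Ndc80 and Anln also lost the call for the difference under some alternatives. With probe sets averaged per gene, Anln went from -1.09 to -0.34 (adjusted p = 0.067). Melk, Mki67 and Kif20a lost it only with a differentiated array left out. Without the first differentiated control their differences were -0.58, -1.02 and -0.60. Groups of 2 or 3 arrays were not tested for an outlying array.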

How the results depend on the processing

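Of the 12 members lower in ES cells, 6 were so under every alternative (Aurka, Bub1b, Cdc20, Cenpa, Nusap1 and Ect2), as were 30 of the 35 lower in differentiated cells (all but Nek2, Ttk, Cenpe, Top2a and Mki67) and 12 of the 20 called for the difference between stages. With each array left out in turn, 8 to 13 members were lower and 0 to 4 higher in ES cells, 35 to 35 were lower in differentiated cells, and 13 to 20 were called for the difference; the 13 came without the first differentiated control. The number higher in ES cells was 1 with a filter at the 75th percentile, with probe sets averaged per gene, with arrays centred on their medians and without both passage-27 arrays (added after seeing the data), 2 with an intensity trend, 3 fitted with all 4 groups and 5 with the replicate block. In differentiated cells the block left 35 lower and the joint fit 33. Same-numbered differentiated arrays deviated apart (r of -0.13). With 2 arrays a group the crossed pairs must then give 0.13, so r does not settle how these arrays pair. Crossing the numbers in the replicate block, added after seeing the data, also gave 35. Over all genes, 2529 against 4023 were lower in differentiated cells with the 75th percentile filter, and 2625 against 4111 higher in the joint fit. Some signs turned, and the cause was not tested. In ES cells they were Cdca3 (0.04), with the probe set mean; Melk (0.02), Cdca3 (0.04) and Ndc80 (0.04), centred; and Cdca3 (0.01) and Prc1 (-0.01), without passage 27. Nek2 in differentiated cells went from -0.45, called, to 0.00 with the probe set mean. For the difference between stages they were Nek2 (0.04), Ttk (0.05), Kif2c (0.07) and Top2a (0.08, from -0.39), with the probe set mean; Ect2 (-0.10), with all arrays quantile normalized; and Ube2c (0.00), centred. With single arrays left out, differences that turned ran, in ES cells, Melk -0.08 to 0.06, Cdca3 -0.09 to 0.09, Cenpe -0.02 to 0.33, Ndc80 -0.09 to 0.11, Tpx2 -0.01 to 0.08 and Prc1 -0.07 to 0.12, and, between stages, Nek2 -0.19 to 0.03, Ttk -0.14 to 0.01, Ube2c -0.10 to 0.05, Nusap1 -0.16 to 0.02 and Ect2 -0.13 to 0.16.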

Other observations

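Of the genes of DNA replication, which act in S phase before the members do, more were lower than higher at both stages. In ES cells 21 of 44 tested were lower and 3 higher (median -0.37), and in differentiated cells 28 of 44 were lower and 3 higher (median -0.35). Over all genes tested, 21.2% were lower and 23.5% higher in ES cells, and 32.6% and 33.3% in differentiated cells. The largest falls in ES cells were Pola1 (-1.68) and Pold2 (-1.32), of DNA polymerases alpha and delta, and Mcm10 (-1.32), an origin firing factor. Those higher were Ccne2 (1.63), the gene of cyclin E2, Slbp (0.83), which binds histone mRNA, and Cdc6 (0.57), an origin licensing factor. Ccne2 began at 4.91 ± 1.01 (SD, n = 3), near the array medians. In differentiated cells Tk1 (-1.35), thymidine kinase, Mcm3 (-0.98) and Mcm4 (-0.97), subunits of the replicative helicase, fell most, and Orc2 (0.85), Rrm2 (0.38) and Pold2 (0.30) rose. Pold2 thus fell at one stage and rose at the other (difference 1.62, adjusted p = 7.3e-05).

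Among the D cyclins, their kinases and the inhibitors of the G1 phase, the 2 largest differences in ES cells were those of Ccnd1 and Cdkn2b. Ccnd1, the gene of cyclin D1, fell from 8.57 ± 0.42 to 5.29 ± 0.33 in ES cells (n = 3 each) and from 10.53 ± 0.07 to 7.02 ± 0.02 in differentiated cells (n = 2 each), differences of -3.28 and -3.51. Cdkn2b, the gene of the Cdk4 inhibitor p15, rose from 4.90 ± 0.25 to 8.12 ± 0.30 in ES cells (n = 3 each, from near the array medians; 3.22, adjusted p = 4.9e-06) and fell by 0.69 in differentiated cells (adjusted p = 0.00037). Rb1, the retinoblastoma gene, rose at both stages (1.04 and 1.20), as did the inhibitor gene Cdkn2d (1.10 and 0.93). Cdk4 fell by 0.41 at both stages. In differentiated cells Cdkn2a (-1.90) and Cdk6 (-1.29) fell and Rbl2 (0.38) rose. Of 14 genes tested in ES cells 6 were higher and 2 lower, and of 15 in differentiated cells 3 were higher and 9 lower. The shares over all genes were 23.5% higher and 21.2% lower in ES cells, and 33.3% and 32.6% in differentiated cells.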
